A study of Mus musculus with 6 samples.

Results

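Lysosomes are acidic compartments in which hydrolases break down proteins, glycans, sulfated sugars and lipids, and their limiting membrane carries heavily glycosylated proteins, transporters and channels. In bone, osteoclasts secrete lysosomal enzymes onto the bone surface, and macrophages and neutrophils are also rich in them. The genes described here are 44 lysosomal genes, chosen by symbol: 12 proteases and peptidases, 11 glycosidases, 5 sulfatases, 7 lipid hydrolases and lipid-handling proteins, 8 membrane proteins and the transcription factor gene Tfeb. All 44 were found among the 34361 genes of the deposited gene table, and all 44 were among the 20388 genes tested. Of the 44 genes, 43 carry the KEGG lysosome term there, which 130 genes hold in all, and Tfeb does not. They lie on 17 chromosomes, so no single locus carries the list.

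RNA from whole mouse femur was sequenced in 3 knockout-labelled libraries, from mice given tamoxifen, and in 3 libraries from mice given corn oil as controls. The series' design text names the deleted gene as Fshr, the receptor of follicle-stimulating hormone, whereas the treatment label names FGF21, a secreted growth factor; both genes had a count of 0 in all 6 libraries, so the data do not check either name. Tamoxifen was given to the knockout-labelled mice alone, so the drug and the deletion cannot be told apart. The series title concerns osteocytes and ovariectomized mice, but no label used here states the Cre driver, strain, age or sex of these mice, or whether they were ovariectomized. Libraries held 65.8 M to 73.5 M estimated counts. Because no label says how replicates were prepared beyond naming separate mice, p-values measure the spread between these libraries, part or all of which may be technical.

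Most of the lysosomal genes were lower in the knockout-labelled femora. After TMM scaling, which sets library sizes from the bulk of the genes, 35 of 44 fell, 6 rose and 3 missed the threshold, a Benjamini-Hochberg adjusted p under 0.05 in edgeR's quasi-likelihood fit. Thus 79.5% of the members were lower and 13.6% higher, against 28.8% lower and 28.7% higher among all 20388 genes. The members' median log2 fold change (knockout-labelled over control, as throughout) was -0.64, against -0.02 for all genes tested, and the range ran from -2.09 for Arsb to 1.40 for Tfeb. 10 members were lower by 2-fold or more, but how many of all genes tested fell as far was not counted. Whole femur is a mixture, and fewer cells of a type and less RNA per cell cannot be told apart in it.

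The deposited FPKM values (fragments per kilobase, scaled to the library's size) gave a wider split. On that scale 41 of 44 members were below the controls in every knockout-labelled library, 3 were above (Gaa, Scarb2 and Tfeb) and none overlapped. Over all genes tested 54.6% were below and 17.9% above without overlap; FPKM carries no correction for RNA composition. Scaling by library totals in place of TMM moved the median of all genes by -0.42 on the log2 scale. With it 40 members were lower and 3 higher, beside 50.7% and 16.6% of all genes. limma on log2(FPKM + 1) also called 40 lower and 3 higher, beside 63.7% and 20.5% of the genes it tested. The members whose direction turned were Ctsd, Lamp1 and Smpd1, higher under TMM and below 0 under library totals.

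**Figure D1:**
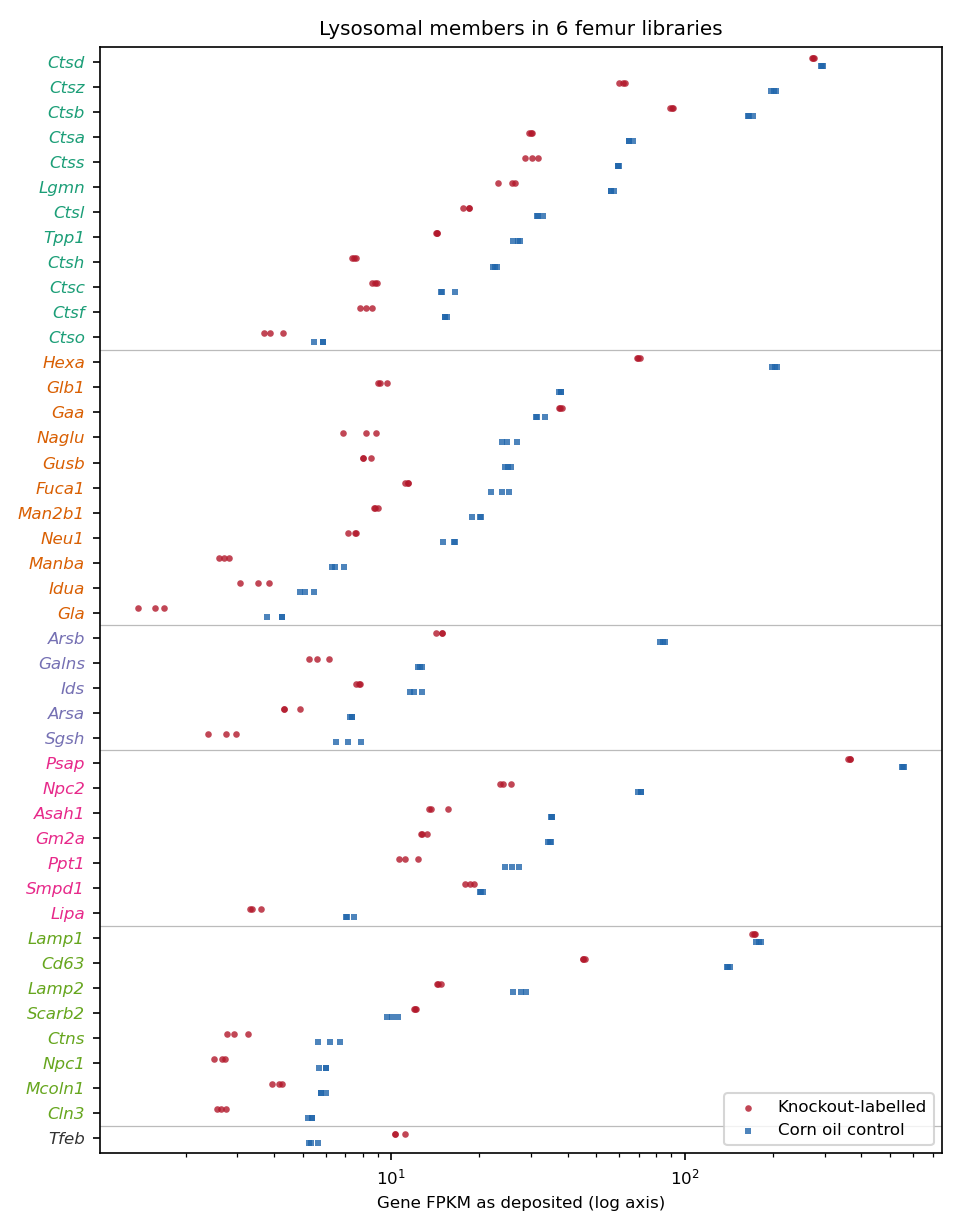
Deposited gene FPKM of the 44 lysosomal genes on a log axis, 1 point per library, with knockout-labelled libraries as red circles above the corn oil controls as blue squares, grouped by role in the order proteases, glycosidases, sulfatases, lipid hydrolases and helpers, membrane proteins and Tfeb. The red points lie left of the blue ones for 41 genes and right of them for Gaa, Scarb2 and Tfeb.

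**Figure D2:**
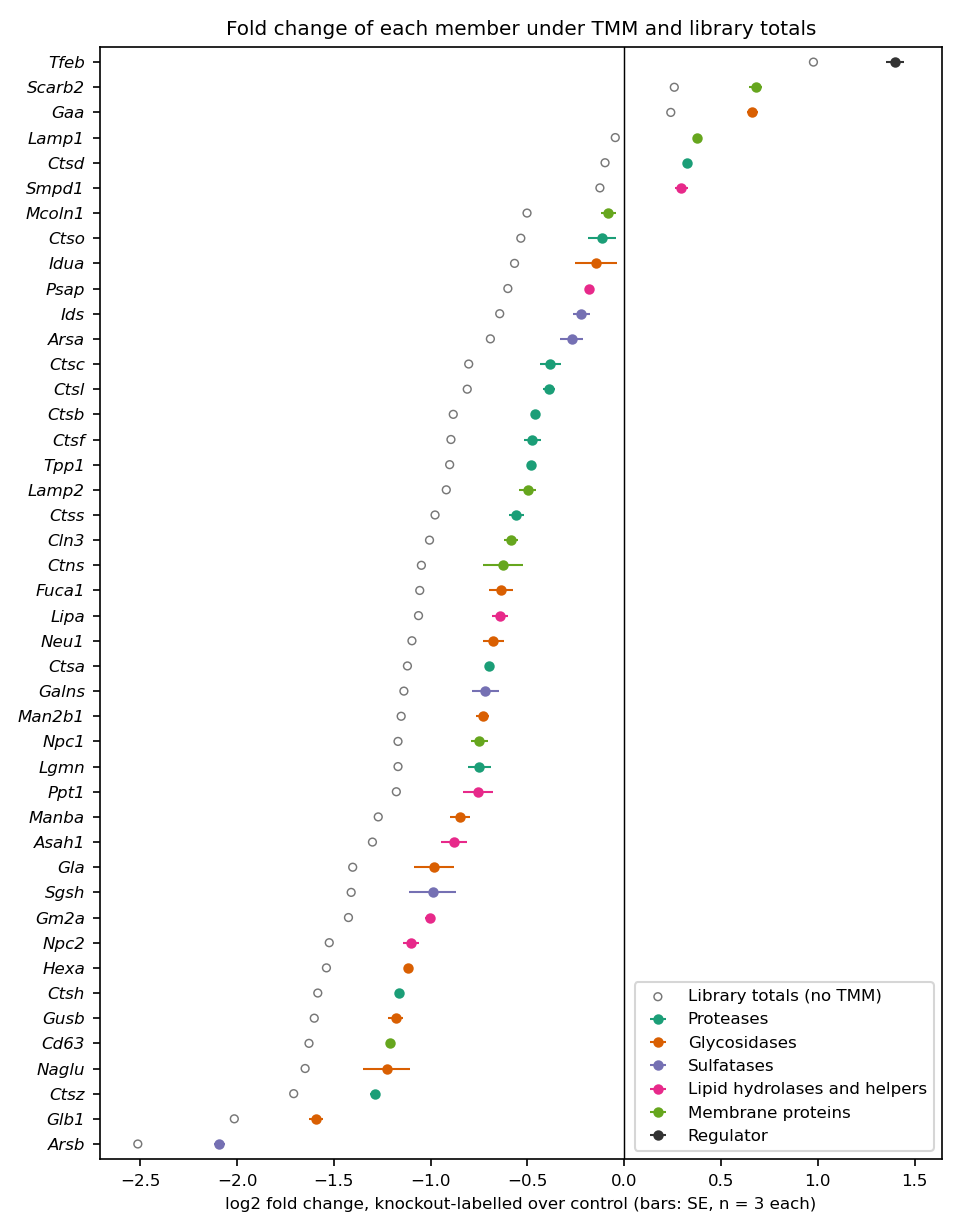
Log2 fold change, knockout-labelled over control, of each of the 44 genes with TMM scaling (filled, bars are the SE, n = 3 each, coloured by role) and with library totals (open circles). Tfeb is highest at 1.40 and Arsb lowest at -2.09 with TMM, and Ctsd, Lamp1 and Smpd1 lie right of 0 with TMM and left of it with library totals.

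The cell type markers of these femora moved as well. Beside their counts, 28.8% of all genes tested were lower and 28.7% higher under TMM, and 50.7% and 16.6% under library totals. Skeletal muscle markers were higher for 18 of 18 genes, with a summed level of 44714 to 45400 FPKM in the knockout-labelled libraries and 9912 to 10033 FPKM in the controls. Markers of osteoclasts, the bone-resorbing cells, were lower for 15 of 15, at 708 to 723 FPKM against 5049 to 5072 FPKM in the controls. Of 16 macrophage markers 13 were lower and 1 higher, summing to 146 to 150.4 FPKM against 414 to 428 FPKM in the controls, and all 14 neutrophil markers were lower, at 3556 to 3606 FPKM against 9119 to 9263 FPKM in the controls. Among 15 markers of osteoblasts and osteocytes, the bone-forming and bone-embedded cells, 12 were lower and 2 higher, summing to 4334 to 4400 FPKM in the knockout-labelled libraries and 18626 to 18725 FPKM in the controls, so bone RNA was present in both groups. Adipocyte markers were higher for 10 of 10, erythroid markers higher for 10 of 11 with 1 lower, and mast cell markers lower for 9 of 10. Of 9 B cell markers 6 were higher and 1 lower, and under library totals 6 were higher and 3 lower. Their summed level went the other way, at 191 to 196 FPKM in the knockout-labelled libraries and 216 to 223 FPKM in the controls. Of 10 endothelial markers 5 were higher and 1 lower under TMM, but 0 were higher and 8 lower under library totals. No marker of these lists was at 0 in all libraries. Their part in the lysosomal genes' values was not tested.

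Tfeb encodes the basic helix-loop-helix transcription factor that drives lysosome biogenesis and binds the CLEAR element, an extended E-box found near many lysosomal genes. Tfeb itself (GRCm39 chromosome 17, 48047955 to 48103344, plus strand) had 10.3, 10.3 and 11.2 FPKM in the knockout-labelled libraries, against 5.62, 5.25 and 5.33 FPKM in the controls. Every knockout-labelled library was above every control, and no other member rose as far. Its log2 fold change 1.40 (SE 0.0455, adjusted p = 1.1e-10) remained positive under library totals, at 0.98.

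Promoter sequence was read for 39 of the 44 genes from the RefSeq promoter table (GRCm38.p6, windows of 300 bases ending shortly after the annotated start). Asah1, Ctsb, Ctsh, Galns and Npc1 are named only. The E-box CACGTG was in the windows of 14 of 39 members (35.9%) and of 2187 of all 27025 genes with a window (8.09%). Its longer form TCACGTGA, which contains the E-box, was in 5 of 39 (12.8%) and 304 of 27025 (1.12%). Each motif reads the same on both strands, and a match of letters is a description, not a binding site. Under TMM the 14 genes with CACGTG had a median log2 fold change of -0.53, with 11 below 0. The 25 without it had -0.64, with 22 below 0. How many of all genes lay below 0 was not counted. Scaling matters here: with library totals Ctsd (-0.099) and Lamp1 (-0.046), which hold the motif, and Smpd1 (-0.13), which does not, were also below 0. The 5 windows with TCACGTGA are printed because they hold the longer form, and their genes differed in direction; each runs 5′ to 3′ along the gene's own strand with the motif in capitals.
Cln3 (chr7:126583187-126583486, minus strand): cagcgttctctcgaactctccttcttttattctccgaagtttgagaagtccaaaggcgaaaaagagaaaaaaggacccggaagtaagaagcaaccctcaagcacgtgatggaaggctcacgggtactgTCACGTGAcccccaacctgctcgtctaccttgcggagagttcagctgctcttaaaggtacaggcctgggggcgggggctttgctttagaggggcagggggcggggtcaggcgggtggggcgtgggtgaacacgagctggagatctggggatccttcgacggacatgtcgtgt
Ctsa (chr2:164833523-164833822, plus strand): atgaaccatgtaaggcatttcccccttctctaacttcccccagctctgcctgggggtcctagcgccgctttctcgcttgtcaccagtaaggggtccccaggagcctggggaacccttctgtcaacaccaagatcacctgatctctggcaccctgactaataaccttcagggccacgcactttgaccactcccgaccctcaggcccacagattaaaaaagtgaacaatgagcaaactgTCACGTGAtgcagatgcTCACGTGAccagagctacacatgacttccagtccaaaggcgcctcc
Ctsd (chr7:142387778-142388077, minus strand): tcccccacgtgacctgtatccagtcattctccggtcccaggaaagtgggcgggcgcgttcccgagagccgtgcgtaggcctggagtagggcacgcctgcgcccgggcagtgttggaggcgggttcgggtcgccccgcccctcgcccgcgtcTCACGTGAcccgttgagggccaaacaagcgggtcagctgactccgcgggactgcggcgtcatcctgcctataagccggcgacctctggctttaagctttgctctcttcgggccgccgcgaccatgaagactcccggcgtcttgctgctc
Gla (chrX:134600956-134601255, minus strand): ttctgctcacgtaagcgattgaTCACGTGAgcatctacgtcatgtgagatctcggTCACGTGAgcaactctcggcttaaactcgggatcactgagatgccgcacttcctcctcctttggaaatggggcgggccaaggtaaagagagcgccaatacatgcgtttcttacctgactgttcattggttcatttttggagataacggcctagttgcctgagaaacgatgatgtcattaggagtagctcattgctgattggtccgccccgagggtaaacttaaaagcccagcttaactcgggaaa
Mcoln1 (chr8:3500269-3500568, plus strand): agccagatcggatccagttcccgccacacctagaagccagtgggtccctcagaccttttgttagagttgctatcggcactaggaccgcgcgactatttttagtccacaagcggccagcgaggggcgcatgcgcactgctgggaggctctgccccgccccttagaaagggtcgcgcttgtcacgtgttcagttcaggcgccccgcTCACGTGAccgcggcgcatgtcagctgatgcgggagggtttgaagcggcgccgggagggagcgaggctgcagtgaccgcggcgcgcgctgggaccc
The motif began 122 bases upstream of the annotated start in Cln3, 99 in Ctsd and 46 in Mcoln1. Gla held it at 228 and 195 bases upstream, and Ctsa at 13 bases upstream and again 4 bases downstream. With that shared motif the 5 genes spread from -0.98 for Gla, -0.70 for Ctsa and -0.59 for Cln3, all lower, through Mcoln1 at -0.081, which did not pass, to Ctsd at 0.32 under TMM and -0.099 under library totals.

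Among 12 proteases 10 fell, 1 rose and 1 missed the threshold (median log2 fold change -0.48). Ctsd, the aspartic protease cathepsin D and the most abundant of them by gene FPKM, had 271, 273 and 276 FPKM in the knockout-labelled libraries, against 294, 297 and 291 FPKM in the controls. FPKM was thus below the controls in each knockout-labelled library, while the log2 fold change 0.32 (SE 0.0101, adjusted p = 8.7e-09) was positive with TMM and -0.099 with library totals. Ctsz, a cathepsin that trims residues from the carboxyl end of proteins, had 62.5, 60.0 and 61.7 FPKM in the knockout-labelled libraries, against 202, 197 and 204 FPKM in the controls. The groups lay far apart, and Ctsz had the lowest fold change of the proteases, with log2 fold change -1.29 (SE 0.0249, adjusted p = 1.6e-12). Ctsb, a cysteine cathepsin, had 90.5, 89.0 and 91.5 FPKM in the knockout-labelled libraries, against 165, 166 and 171 FPKM in the controls, again without overlap, and its log2 fold change was -0.46 (SE 0.0207).

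Among the other cysteine cathepsins, Ctsh, an aminopeptidase, averaged 7.49 ± 0.116 FPKM in the knockout-labelled libraries and 22.5 ± 0.346 FPKM in the controls (SD, n = 3 each), with a log2 fold change of -1.16. Lgmn, the asparaginyl endopeptidase legumain that matures several cathepsins, had -0.75, and Ctss, the cathepsin that cleaves the invariant chain in antigen-presenting cells, had -0.56. Ctsl (-0.39), Ctsf (-0.47) and Ctsc (-0.38), the last an activator of granule serine proteases in neutrophils and mast cells, were lower by smaller amounts. Ctsa, the carboxypeptidase that protects β-galactosidase and neuraminidase in a complex, had -0.70, and Tpp1, a tripeptidyl peptidase, had -0.48. Ctso had 4.27, 3.69 and 3.87 FPKM in the knockout-labelled libraries, against 5.85, 5.86 and 5.49 FPKM in the controls, so FPKM did not overlap, but after TMM its log2 fold change was -0.11 (SE 0.0714, adjusted p = 0.18). Without knockout replicate 1 the Ctso value was -0.18 with an adjusted p of 0.0497.

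Glycosidases, which strip sugars from glycolipids, glycoproteins and glycosaminoglycans, were lower for 9 of 11 genes, higher for 1 and not past the test for 1, with the lowest median of the role groups at -0.85. Hexa, which encodes an enzyme subunit needed to degrade GM2 ganglioside, had 68.7, 70.3 and 69.5 FPKM in the knockout-labelled libraries, against 206, 203 and 199 FPKM in the controls. All knockout-labelled values were well under the lowest control, with log2 fold change -1.12 (SE 0.0143, adjusted p = 8.7e-13). Gaa, the acid α-glucosidase that degrades glycogen in lysosomes, had 38.2, 37.6 and 37.4 FPKM in the knockout-labelled libraries, against 33.3, 31.5 and 31.3 FPKM in the controls. Gaa was the single glycosidase above the controls in every library, with log2 fold change 0.66 (SE 0.0278, adjusted p = 1.1e-09) under TMM and 0.24 under library totals. Glb1, the β-galactosidase, had 9.71, 9.04 and 9.19 FPKM in the knockout-labelled libraries, against 37.4, 37.8 and 38.1 FPKM in the controls, the largest separation of the group, with log2 fold change -1.59 (SE 0.0355, adjusted p = 5.2e-12).

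Gusb (β-glucuronidase, -1.18), Naglu (which acts on heparan sulfate, -1.23) and Gla (α-galactosidase, -0.98) were lower by about as much as Hexa on the log2 scale. Naglu was the least even of these, at 6.85, 8.92 and 8.22 FPKM in the knockout-labelled libraries, against 24.8, 26.9 and 23.8 FPKM in the controls. Its libraries spread more within each group than those of Hexa but did not overlap, and its SE was 0.121. Manba (-0.85) and Man2b1 (-0.73), a β- and an α-mannosidase, Neu1 (-0.68), a neuraminidase, and Fuca1 (-0.64), a fucosidase, were lower with values nearer the median of all members. Idua, the iduronidase that acts on dermatan and heparan sulfate, had 3.84, 3.07 and 3.51 FPKM in the knockout-labelled libraries, against 4.88, 5.49 and 5.10 FPKM in the controls, without overlap, and its log2 fold change after TMM was -0.15 (SE 0.108, adjusted p = 0.19).

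All 5 sulfatases were lower, with a median log2 fold change of -0.72. Arsb, which removes sulfate from dermatan and chondroitin sulfate (GRCm39 chromosome 13, 93908138 to 94079524, plus strand), had 14.9, 15.0 and 14.2 FPKM in the knockout-labelled libraries, against 85.8, 82.8 and 84.1 FPKM in the controls. No other member separated the groups this widely: the log2 fold change -2.09 (SE 0.0297, adjusted p = 2.0e-14) corresponds to a 4.26-fold lower level after TMM, and mean FPKM was 5.73-fold lower. Galns, which acts on keratan sulfate and chondroitin sulfate, had 6.15, 5.26 and 5.62 FPKM in the knockout-labelled libraries, against 12.6, 12.4 and 12.7 FPKM in the controls, with a log2 fold change of -0.72 (SE 0.0686). Ids, the iduronate sulfatase, had 7.84, 7.79 and 7.58 FPKM in the knockout-labelled libraries, against 11.6, 12.0 and 12.7 FPKM in the controls, the smallest change of the sulfatases at -0.22 (adjusted p = 0.0012). Arsa, which acts on sulfatide, had -0.27 (adjusted p = 0.0045), and Sgsh, a heparan sulfate sulfamidase, had -0.99 with an SE of 0.122, the largest of any member.

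Genes of lipid breakdown fell for 6 of 7 and rose for 1, and their median was -0.76. Psap, the precursor of the saposins that present lipids to hydrolases, was the most abundant member at 366, 359.6 and 365 FPKM in the knockout-labelled libraries, against 553, 557 and 549 FPKM in the controls. Although the groups were more than 100 FPKM apart, its log2 fold change -0.18 (SE 0.0116, adjusted p = 6.2e-07) was the smallest decrease of the group. Npc2, the soluble cholesterol carrier of the lysosome, had 24.1, 25.7 and 23.6 FPKM in the knockout-labelled libraries, against 69.4, 71.3 and 71.1 FPKM in the controls, with log2 fold change -1.10 (SE 0.0412, adjusted p = 2.8e-11). Asah1, acid ceramidase, had 13.7, 13.4 and 15.6 FPKM in the knockout-labelled libraries, against 35.0, 35.4 and 35.4 FPKM in the controls, again without overlap, at -0.88 (SE 0.0657). Smpd1, acid sphingomyelinase, had 19.2, 17.8 and 18.6 FPKM in the knockout-labelled libraries, against 20.3, 20.6 and 20.1 FPKM in the controls. Its values were close in the 2 groups: its log2 fold change was 0.29 under TMM (SE 0.0354, adjusted p = 3.1e-05) and -0.13 under library totals. Gm2a (-1.0), the GM2 ganglioside activator, Ppt1 (-0.76), a palmitoyl thioesterase, and Lipa (-0.64), the acid lipase of cholesteryl esters, were lower.

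Membrane proteins were the most divided group, with 5 of 8 lower, 2 higher and 1 not passing, and a median of -0.54. Lamp1, the major glycoprotein of the lysosomal membrane, had 170.1, 173 and 174 FPKM in the knockout-labelled libraries, against 182, 175 and 179 FPKM in the controls. The groups almost touched in FPKM, and the log2 fold change 0.37 (SE 0.0157, adjusted p = 8.6e-09) under TMM stood at -0.046 under library totals (adjusted p = 0.062). Lamp2, its relative that also takes part in autophagy, had 14.8, 14.4 and 14.4 FPKM in the knockout-labelled libraries, against 27.7, 28.8 and 26.1 FPKM in the controls, a clear separation downward with log2 fold change -0.50 (SE 0.0439, adjusted p = 1.0e-07). Cd63, a tetraspanin of late endosomes and secretory granules, had 46.0, 44.9 and 45.0 FPKM in the knockout-labelled libraries, against 139, 140.3 and 142 FPKM in the controls, the widest gap of the membrane proteins, with log2 fold change -1.21 (SE 0.0195, adjusted p = 4.8e-13). Scarb2, a sorting receptor of the lysosomal limiting membrane, had 12.1, 12.1 and 12.0 FPKM in the knockout-labelled libraries, against 10.5, 10.1 and 9.70 FPKM in the controls. The knockout-labelled libraries were all above the controls, with log2 fold change 0.68 (SE 0.0324, adjusted p = 8.5e-09) under TMM and 0.26 under library totals.

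The cholesterol exporter gene Npc1 had -0.75, the cystine transporter gene Ctns -0.63, and Cln3, whose loss causes a juvenile ceroid lipofuscinosis in humans, -0.59; all 3 were lower. Mcoln1, the calcium channel mucolipin, had 4.26, 3.94 and 4.14 FPKM in the knockout-labelled libraries, against 5.99, 5.77 and 5.79 FPKM in the controls, without overlap but with a log2 fold change of -0.081 after TMM (SE 0.0373, adjusted p = 0.18). With upper quartile scaling Mcoln1 passed at -0.12 (adjusted p = 0.047). Genes on the opposite strand overlap 7 of the 44 members at 10% or more of the member's mean FPKM: Apobr with Cln3, Neurl2 and Pltp with Ctsa, Dgkq with Idua, Oaz2-ps with Manba, Rmc1 with Npc1, Cap1 with Ppt1 and Card14 with Sgsh. The libraries were stranded, but no source used here says whether counting used strand, so the values of these 7 are less certain. For Ppt1 and Cln3 the partner is the more abundant gene. Ppt1 averaged 18.6 FPKM and Cap1 69.5 FPKM over the 6 libraries, and Cln3 3.98 FPKM and Apobr 9.11 FPKM.

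The make-up of the lysosomal RNA differed between the groups as well as its amount. For this the FPKM of each gene's transcripts was summed, because the deposited gene FPKM divides by a gene length that covers all transcripts and is lower, by 1.0 to 3.99 times among the members in the controls. The members' summed transcript FPKM was 1959 ± 14.9 in the knockout-labelled libraries and 3598 ± 16.7 in the controls (SD, n = 3 each), a ratio of 0.545. This sum carries no correction for RNA composition. For scale, library totals in place of TMM moved the median of all genes by -0.42 on the log2 scale. Such sums also depend on how reads were split among transcripts of different length. For Ctsh the control sums were 62.1, 54.3 and 64.6 FPKM, while its gene FPKM was 22.2, 22.5 and 22.9. As shares of the members' sum, which no scaling between libraries can change, Psap came first in both groups. It held 19.2% ± 0.072 in the knockout-labelled libraries and 16.0% ± 0.124 in the controls. Ctsd held 15.8% ± 0.438 and Lamp1 10.6% ± 0.157 in the knockout-labelled libraries, against 9.03% ± 0.131 and 5.97% ± 0.0862 in the controls. Cd63 went the other way, at 7.99% ± 0.0866 in the knockout-labelled libraries and 13.5% ± 0.163 in the controls. These 4 together made up 53.5% of the sum in the knockout-labelled libraries and 44.5% in the controls. Arsb ranked 17th of the 44 in the knockout-labelled libraries and 8th in the controls, while Gaa ranked 8th and 19th. By role, proteases held 37.0% ± 0.242 in the knockout-labelled libraries and 34.1% ± 0.261 in the controls. Sulfatases held 2.25% ± 0.010 in the knockout-labelled libraries and 4.67% ± 0.0592 in the controls. In the same order, glycosidases held 10.8% ± 0.109 and 13.4% ± 0.216. Genes of lipid breakdown held 25.4% ± 0.104 and 23.7% ± 0.129, and membrane proteins 23.2% ± 0.0760 and 23.7% ± 0.0623. In each of these roles the member whose share differed most between the groups was then left out. The remaining shares were still taken of the sum over all 44 members. Without Ctsd the other 11 proteases held 21.2% ± 0.371 in the knockout-labelled libraries and 25.1% ± 0.392 in the controls. Part of that direction is fixed by the choice of Ctsd, whose larger share in the knockout-labelled libraries still filled the sum. Without Arsb the other 4 sulfatases held 1.13% ± 0.0293 in the knockout-labelled libraries and 1.17% ± 0.0377 in the controls. The libraries of the groups overlapped on that scale. Arsb stayed in the sum, at 1.12% in the knockout-labelled libraries and 3.50% in the controls, which lowers the other shares more in the controls. Shares of a sum without Arsb were not taken, so the overlap does not show that Arsb alone differed. Glycosidases without Hexa held 7.21% ± 0.0875 in the knockout-labelled libraries and 7.75% ± 0.133 in the controls. In the same order, genes of lipid breakdown without Psap held 6.25% ± 0.174 and 7.77% ± 0.0119. Membrane proteins without Cd63 held 15.3% ± 0.126 and 10.2% ± 0.109. The left-out member still filled the sum in these roles as well. All these shares are given without a p, since an exact permutation test of 3 libraries against 3 cannot go below 0.1.

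**Figure D3:**
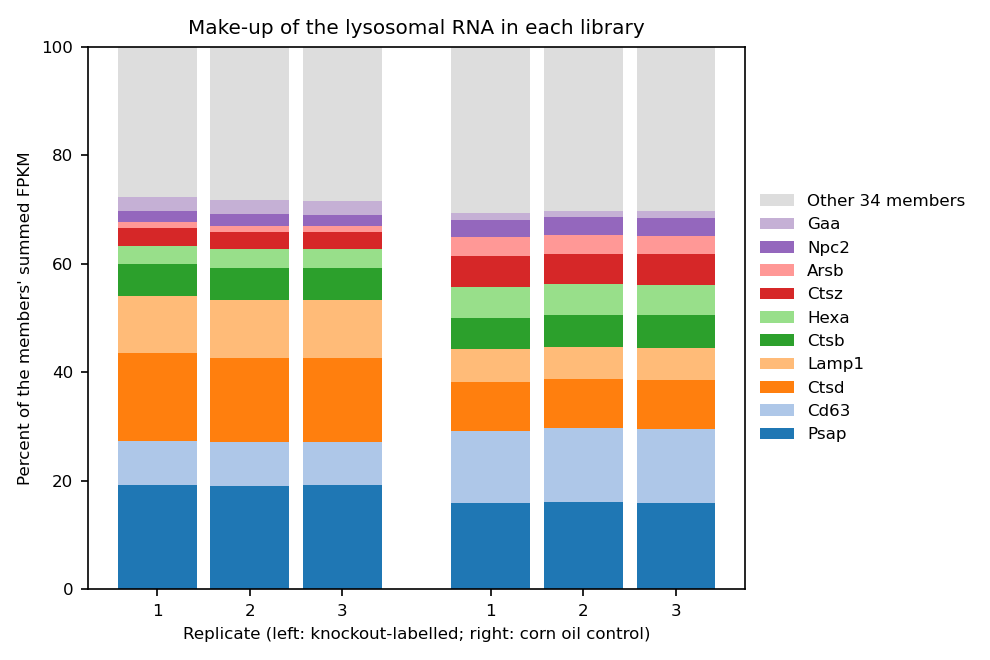
Percent of the members' summed transcript FPKM taken by 10 named members and by the other 34, 1 bar per library, with the 3 knockout-labelled libraries on the left and the 3 corn oil controls on the right. Ctsd and Lamp1 take larger shares on the left (15.8% and 10.6% on average, against 9.03% and 5.97% on the right), and Cd63 and Arsb smaller ones.

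Transcript shares within genes gave no called change with low counts filtered and all 6 libraries. The transcript table held 229 transcripts of the 44 genes, and 128 of them in 36 genes were tested for their share of the gene. edgeR's diffSpliceDGE called 0 of the 128 at an adjusted p under 0.05, with 7 at an unadjusted p under 0.05, beside 0.85% of the 37888 transcripts tested in all. limma on the logit of the FPKM share also called 0, with 10 at an unadjusted p under 0.05, beside 0.872% of all transcripts. Lamp2 makes proteins with different tails, and the transcript of the LAMP-2B form held 83.4% ± 0.694 of the gene's transcript FPKM in the knockout-labelled libraries and 82.3% ± 0.976 in the controls. The LAMP-2A form, the receptor of chaperone-mediated autophagy, held 15.5% ± 0.778 in the knockout-labelled libraries and 16.9% ± 1.12 in the controls. Both forms had a log2 fold change near that of the gene, at -0.60 for LAMP-2A and -0.46 for LAMP-2B.

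Beyond the 44 members, other lysosomal hydrolases were mostly lower too, 24 of 31 tested, while 2 rose; the median log2 fold change was -0.50. Under library totals 29 were lower and 2 higher. For this list and those below, the shares of all genes tested were 28.8% lower and 28.7% higher under TMM. With library totals they were 50.7% and 16.6%. Ctsk, the collagen-degrading cathepsin of osteoclasts, averaged 241 ± 3.02 FPKM in the knockout-labelled libraries and 2122 ± 2.35 FPKM in the controls (SD, n = 3 each), with log2 fold change -2.71 (SE 0.0130, adjusted p = 1.6e-17). Acp5, the tartrate-resistant acid phosphatase of the same cells, averaged 249 ± 2.61 FPKM in the knockout-labelled libraries and 1537 ± 3.42 FPKM in the controls, with log2 fold change -2.20 (SE 0.0115, adjusted p = 5.6e-17). Both log2 fold changes lie below that of Arsb, the lowest of the 44. Ctse, an aspartic protease related to Ctsd, was higher at 1.59.

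Other lysosomal membrane genes had 24 of 34 lower and 4 higher under TMM, with a median of -0.38, and 29 lower and 0 higher under library totals, with a median of -0.80. The sugar-phosphate exchanger gene Slc37a2 (6.88 FPKM in the knockout-labelled libraries and 47.5 FPKM in the controls, -2.36), the macrophage glycoprotein gene Cd68 (-1.76) and the chloride-proton exchanger gene Clcn7 (-1.39) led the decreases. Ctsk, Acp5 and Clcn7 are also among the osteoclast markers, and Cd68 among the macrophage markers. The machinery that tags and sorts hydrolases by mannose 6-phosphate had 13 of 20 lower and 5 higher under TMM, with a median of -0.19, and 18 lower and 1 higher under library totals, with a median of -0.61. Gnptab, which encodes the phosphotransferase subunits that make the tag, fell by 1.23 on the log2 scale. Of the receptors of the tag, M6pr had -0.74 and Igf2r -0.10 (adjusted p = 0.0082). Genes of endogenous cathepsin inhibitors had 11 of 16 lower and 2 higher under TMM, and 13 lower and 2 higher under library totals, with Cstb (-1.84) and the abundant Cst3 (-0.30) lower and Cst6 (2.56) higher.

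Regulators of lysosome number and nutrient sensing ran against the enzymes under TMM, 16 of 26 being higher and 6 lower (median 0.25), but with library totals 3 were higher and 14 lower, with a median of -0.17. Rragd, a Rag GTPase that brings MTORC1 to lysosomes, had 26.9, 27.6 and 28.5 FPKM in the knockout-labelled libraries, against 8.40, 7.87 and 8.85 FPKM in the controls. It was higher in every knockout-labelled library, with log2 fold change 2.15 (SE 0.0532, adjusted p = 6.7e-13) under TMM and 1.73 under library totals. Of the relatives of Tfeb, Tfe3 was lower at -0.51 (adjusted p = 1.4e-05), and Mitf had -0.16 (adjusted p = 0.079), which did not pass. Over the 5 lists together 78 of 127 genes tested were lower and 29 higher, with a median of -0.26, and under library totals 103 were lower and 8 higher. All genes tested had 28.8% lower and 28.7% higher under TMM, and 50.7% and 16.6% under library totals. The 14 of 26 regulators lower under library totals were near that share of all genes.

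**Figure D4:**
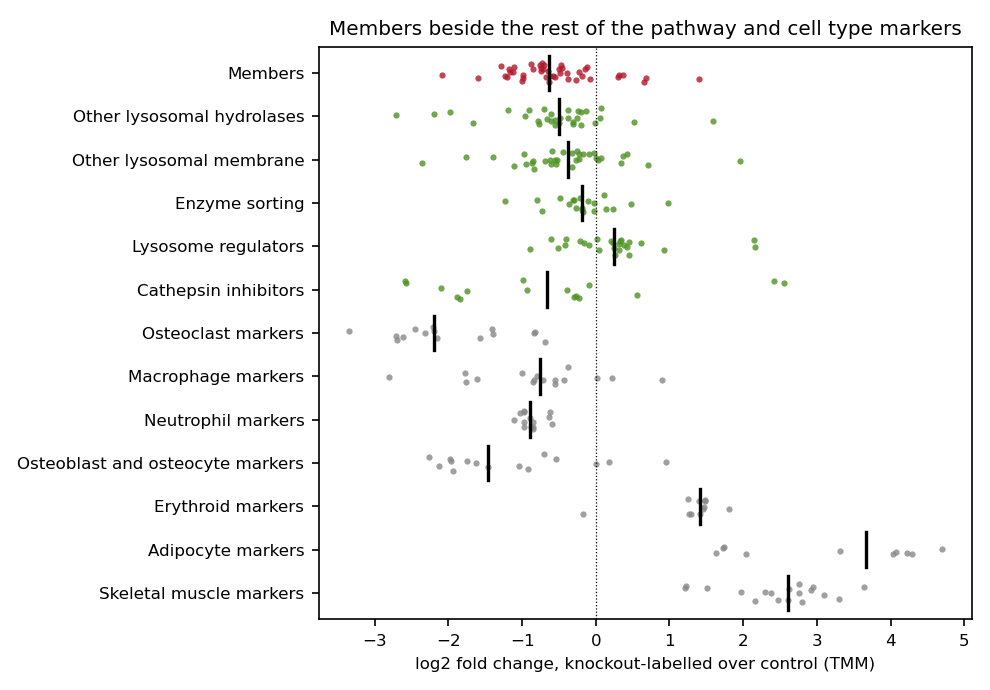
Log2 fold change (knockout-labelled over control, TMM) of each gene tested in the 44 members (red), 5 other lists of lysosomal genes (green) and 7 cell type marker lists (grey), with the list's median as a black bar. The members' median is -0.64, beside -0.75 for macrophage and -0.89 for neutrophil markers. Medians of the marker lists drawn run from -2.20 for osteoclast to 3.67 for adipocyte markers, with skeletal muscle markers at 2.61. B cell, mast cell and endothelial markers are not drawn.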

How the data were processed

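RNA was measured in 6 libraries of mouse femur, grouped by the treatment label. Per the labels' protocols, poly(A)-selected stranded libraries were read as paired ends on a NovaSeq X Plus. Build GRCm39 and the tools HISAT2, StringTie, RSEM and fastp are named in the submitters' processing notes; no versions or settings are known here. The authors deposited each expected count (estimated count) and FPKM per gene and per transcript, per the file headers. The deposited expected counts were made by the authors before any scaling to depth, and by their values they follow FPKM times length at about 4 per read pair, so that 65.8 M to 73.5 M counts stand for 16.4 M to 18.4 M read pairs. The deposited counts are whole numbers and were used as they are. Members and lists were chosen with earlier results of these data known.

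The gene test was edgeR 4.0.16 (quasi-likelihood, filterByExpr, TMM factors 0.863 to 0.866 in the knockout-labelled libraries and 1.156 to 1.159 in the controls) in R 4.3.3, with p-values adjusted by Benjamini-Hochberg over 20388 genes, which hold 99.96% of counts. The SE of the members was 0.0101 to 0.122, and their lowest count in any library 321. Transcript shares were tested with diffSpliceDGE. Alternatives used DESeq2 1.42.0 and limma 3.58.1 on log2(FPKM + 1). Scripts were tested on simulated data.

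Within a group, library pairs differed by a median of 1.54 to 1.65 times the chi-square that counting of read pairs gives, so none was treated as a duplicate. That ratio rests on taking 4 counts per read pair, and it does not tell technical replicates from separate mice. Over 948 abundant genes the median coefficient of variation was 1.68% in the knockout-labelled libraries and 1.83% in the controls. So small a spread does not tell how much of the difference between mice the libraries hold. The SEs and p-values may therefore understate it. Described in full were the 3 most abundant members of each role group and those with the extreme fold changes; of the other lists, up to 4 genes by adjusted p plus Ctsk, Acp5, Tfe3, Mitf, Igf2r and M6pr; some genes that this rule names are not reported here. Of the other lists' entries, Ada2, BC100530, Bc117090 and Vpreb1 matched no gene name in the table.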

Additional observations from a re-analysis of the deposited data

How the results depend on the processing

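Over 18 alternatives 41 of the 44 members kept their direction in every one, and 38 kept direction and call. Members called higher numbered 6, but 3 with library totals and 3, 3 and 3 with limma on log2(FPKM + 1), on log2(FPKM + 0.1) and without a filter. Other lysosomal genes called higher numbered 29, but 8 with library totals and 7, 7 and 7 in those limma fits. The members that turned, in the order library totals, the 3 limma fits and limma after quantile normalization, were Ctsd (-0.099, -0.10, -0.10, -0.10 and -0.36) and Lamp1 (-0.046, -0.051, -0.051, -0.051 and -0.14). Smpd1 turned in the first 4, at -0.13, -0.12, -0.13 and -0.12. Library totals and the 3 limma fits carry no TMM factors, which by construction lowers the fold changes of all genes. Leaving out each library in turn gave 6 to 6 members higher, 35 to 36 lower, 27 to 29 other lysosomal genes higher and 72 to 78 lower. Of the members' transcripts 0 were called for a change in share, and 1 was called without a filter (Ctns). Leaving out a library gave 0 to 1 called, with 1 without knockout replicate 3 (Ctsa) and 1 without control replicate 2 (Ctns).

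The replicate numbers do not pair the samples: deviations of same-numbered libraries correlated at 0.005, 0.003 and -0.009 over genes. With the replicate block 6 members were higher and 35 lower, 29 and 78 other lysosomal genes, and 0 transcripts. Dividing counts by 4, an alternative chosen after seeing the data, left 6 and 35. With 3 libraries a group, 1 tissue and no record of Cre driver or sex, group differences include any in preparation.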

Other observations

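Some transcript shares of abundant members differed between libraries of 1 group by more than they differed between groups. The Psap transcript ENSMUST00000105465 held 79.3%, 28.5% and 71.5% of the gene's transcript FPKM in the knockout-labelled libraries, against 89.4%, 87.9% and 15.0% in the controls. The Ctsd transcript ENSMUST00000066401 held 69.1% in knockout-labelled replicate 1 and 0 in the other 5 libraries. In Tfeb the leading transcript, ENSMUST00000086932, was more even, at 87.2%, 90.1% and 90.1% in the knockout-labelled libraries, against 83.1%, 83.4% and 83.3% in the controls, without overlap. Its share was not called by edgeR or limma.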
